A study of Homo sapiens with 6 samples.

Results

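Metallothioneins are small cysteine-rich proteins that bind zinc, copper and cadmium through the thiol groups of their cysteines and react with oxidants through the same groups. MTF1 is the zinc-sensing transcription factor that enters the nucleus when free zinc rises and binds metal response elements (MREs) in the promoters of its target genes. Its best known targets are the metallothionein genes and SLC30A1, which encodes the zinc exporter of the plasma membrane. The genes described here are 7 metallothioneins (MT2A, MT1E, MT1X, MT1F, MT1M, MT1A and MT1G), MTF1 and SLC30A1. Their rows were taken by gene symbol, with no cut on a measured value, and all 9 are among the 33496 genes listed in each library.

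The study asked which transcripts vitamin K alters in retinal pigment epithelial (RPE) cells exposed to erastin, a blocker of cystine uptake that induces the iron-dependent cell death called ferroptosis. The cells were ARPE-19, a human line derived from RPE and labelled wild type, and they received 5 μM erastin for 24 h in all 6 libraries. The 3 Era libraries had erastin alone, and the 3 Era+VK libraries had 1 h of pretreatment with 10 μM vitamin K1 (VK1) before it. Untreated cells were not analysed here, and all levels given are levels under erastin. The labels do not say whether the libraries of a group came from separate cultures, so the p-values measure the spread between these libraries only.

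Expression was given as FPKM, fragments scaled to transcript length and to the mapped fragments of the library. FPKM put genes of different length on a common scale but keep no read depth, so no counting error can be given. How exact that scale is for the short metallothionein transcripts (396 to 829 bases) was not tested. The libraries summed to 228452.3 to 237958.1 FPKM and listed 24143 to 24601 genes above 0. Of 12 RPE markers in the files, 5 or 6 reached 1 FPKM in each library, among them KRT18, KRT8, MITF and OTX2, while the visual cycle genes RPE65 (at most 0.02 FPKM) and RLBP1 (at most 0.29 FPKM) were at or near 0. Era+VK 2 and Era+VK 3 stand apart from the others: their 16 erythroid markers summed to 241.22 and 233.88 FPKM, with 9 and 8 markers at 1 FPKM or more and GATA1 at 2.35 and 2.27 FPKM, against sums of 0.31 to 0.63 FPKM, no marker at 1 FPKM and GATA1 listed at 0 in the other 4 libraries. Endothelial markers summed to 0.82 to 1.2 FPKM, with none of 7 at 1 FPKM in any library. The differences of the tested genes, the metallothionein sum and the related gene lists are therefore also given without those 2 libraries. BEST1, a chloride channel of RPE, varied across both groups, with 2.65, 0.65 and 56.98 FPKM in Era and 36.45, 0.6 and 4.8 FPKM in Era+VK. In bulk samples, fewer cells of a type and less RNA per cell cannot be told apart.

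In the GENCODE 29 annotation of GRCh38 the 7 metallothionein genes lie together on chromosome 16, from the start of MT2A (chr16:56608199-56609497) to the end of MT1X (chr16:56682424-56684196), all on the plus strand except MT1G (chr16:56666731-56668065). Between them stand MT1E (chr16:56625475-56627112), MT1M (chr16:56632233-56633986), MT1A (chr16:56638666-56640087) and MT1F (chr16:56657694-56660698). MTF1 (chr1:37809567-37859620) and SLC30A1 (chr1:211571568-211578742) lie on the minus strand of chromosome 1. Each metallothionein has 3 exons and a coding length of 186 bases, which is 61 codons and a stop, and 20 of the 61 codons encode cysteine. By contrast MTF1 has 11 exons and 753 codons, and SLC30A1 has 2 exons and 507 codons. The coding sequences of the 4 metallothioneins that were abundant enough to be tested are shown with the cysteine codons in capitals, because these triplets make up the metal-binding part of the protein and because the close likeness of the genes bears on how reads can be assigned to them.
MT2A: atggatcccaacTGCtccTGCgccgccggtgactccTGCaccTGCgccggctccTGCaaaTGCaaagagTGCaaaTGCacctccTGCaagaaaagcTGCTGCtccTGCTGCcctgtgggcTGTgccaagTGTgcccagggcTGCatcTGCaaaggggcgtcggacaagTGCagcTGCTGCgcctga
MT1E: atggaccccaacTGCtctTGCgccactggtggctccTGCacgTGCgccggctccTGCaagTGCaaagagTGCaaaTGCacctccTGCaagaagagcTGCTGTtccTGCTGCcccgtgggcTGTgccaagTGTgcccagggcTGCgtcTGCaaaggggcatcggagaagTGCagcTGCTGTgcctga
MT1X: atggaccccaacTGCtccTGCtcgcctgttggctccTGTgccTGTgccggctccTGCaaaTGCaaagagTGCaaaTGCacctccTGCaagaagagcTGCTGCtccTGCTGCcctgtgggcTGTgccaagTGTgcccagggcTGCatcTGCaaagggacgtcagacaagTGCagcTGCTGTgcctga
MT1F: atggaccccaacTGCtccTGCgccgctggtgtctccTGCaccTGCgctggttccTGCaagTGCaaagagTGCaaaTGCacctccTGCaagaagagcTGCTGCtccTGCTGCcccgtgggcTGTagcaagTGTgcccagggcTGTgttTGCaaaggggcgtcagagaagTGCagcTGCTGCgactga
Over the 21 pairs of the 7 genes, aligned without gaps, coding identity ran from 88.7% (MT1F with MT1X) to 95.2% (MT1G with MT2A), and the most abundant pair, MT2A and MT1E, shared 92.5% of bases.

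Exact matches were also counted over whole transcripts, coding part included. Of all 50-base windows of each transcript, the share found letter for letter in another metallothionein gene or pseudogene was 4.88% in MT2A, 5.34% in MT1E, 3.59% in MT1F, 7.05% in MT1M, 5.76% in MT1A, 15.96% in MT1X and 20.17% in MT1G. No window of 150 bases was shared. How the authors' counting treated fragments that match several of these genes is not given in the sources used here, so the levels of the low members, which stand beside the far more abundant MT2A, are uncertain.

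RefSeq promoter sequence (build GRCh38.p14) was matched for 4 of the 9 genes: MT2A, MT1X, MTF1 and SLC30A1. In the 250 bases before the RefSeq start, the MRE core, searched as TGCACNC or TGCGCNC on both strands, occurred 7 times in MT2A, 4 times in MT1X, 1 time in SLC30A1 and 0 times in MTF1. The SLC30A1 window (chr1:211579162-211579411, minus strand) lies wholly upstream of its GENCODE start at base 211578742. The bases next to that start were therefore not searched. Of 35116 promoters of the same length, 24.8% held at least 1 core, 0.37% held 4 or more and 0.031% held 7 or more. The antioxidant response core TGACNNNGC, also searched on both strands, occurred 1 time each in MT2A, MT1X and SLC30A1 and 0 times in MTF1, and 10.9% of all promoters held it. Overlap between the MRE cores and the antioxidant core was allowed. The part of the MT1X promoter that lies before the GENCODE start (204 bases, chr16:56682220-56682423, plus strand) is shown to let the repeated cores be seen, in capitals. For MT2A, whose RefSeq window lies inside the first exon of the longer GENCODE transcript, a stretch of 30 bases with a pair of cores on opposite strands is shown (chr16:56608408-56608437, plus strand).
MT1X promoter: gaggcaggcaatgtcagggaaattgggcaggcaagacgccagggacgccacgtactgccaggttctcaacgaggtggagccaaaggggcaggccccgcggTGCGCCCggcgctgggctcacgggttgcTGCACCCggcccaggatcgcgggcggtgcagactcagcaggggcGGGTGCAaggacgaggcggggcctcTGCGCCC
MT2A promoter: cgcggcccGTGTGCAgagccgggTGCGCCC
These matches describe the sequence and say nothing of whether MTF1 was bound in these cells.

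The erastin-treated cells held 1 dominant metallothionein transcript. MT2A, the broadly expressed metallothionein, had 83.93% to 86.46% of the summed FPKM of the 7 genes in each library, and MT1E had 12.55% to 14.59%. In the Era libraries MT2A stood at 197.7, 258.08 and 238.05 FPKM, and in the Era+VK libraries at 183.64, 232.22 and 184.37 FPKM, which placed it between rank 82 and rank 126 of all genes. Era+VK 2 lay within the range of the Era libraries, while Era+VK 1 and Era+VK 3 were below all of them, so the groups overlapped. The means were 231.3 ± 30.8 FPKM without and 200.1 ± 27.8 FPKM with VK1 (SD, n = 3 each). The log2 fold change on log2(FPKM + 1), Era+VK against Era, was -0.21 (SE 0.12, 95% interval -0.49 to 0.07, adjusted p = 0.449 in limma over 11981 genes), and the two-sided exact permutation test of the mean FPKM gave p = 0.2, where 3 against 3 libraries cannot go below 0.1.

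MT1E, a metallothionein of the same metal-induced group, was the next in level. It stood at 31.6, 37.45 and 37.64 FPKM in Era and at 31.36, 40.38 and 28.72 FPKM in Era+VK. The highest and the lowest value both came from Era+VK libraries, which enclosed the whole Era range. Its means of 35.6 ± 3.43 and 33.5 ± 6.11 FPKM (SD, n = 3 each) gave a log2 fold change of -0.09 (SE 0.12, 95% interval -0.38 to 0.19, adjusted p = 0.755 in limma), and the exact permutation p was 0.7. The ratio of MT1E to MT2A stayed between 0.1451 and 0.1739 over the 6 libraries.

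MT1X and MT1F followed at a much lower level. MT1X was listed at 1.31, 1.69 and 1.7 FPKM in Era and at 1.45, 1.74 and 0.89 FPKM in Era+VK. As for MT1E, the top and the bottom value were both in Era+VK, and the highest was 1.96 times the lowest. MT1F was listed at 1.21, 0.82 and 1.13 FPKM in Era and at 1.17, 1.57 and 1.06 FPKM in Era+VK, with Era 2 lowest and Era+VK 2 highest and the remaining libraries interleaved. The log2 fold changes were -0.13 for MT1X (SE 0.14, 95% interval -0.46 to 0.19, adjusted p = 0.682 in limma) and 0.14 for MT1F (SE 0.11, 95% interval -0.12 to 0.40, adjusted p = 0.580 in limma). MT1X averaged 1.57 ± 0.222 and 1.36 ± 0.432 FPKM, and MT1F 1.05 ± 0.206 and 1.27 ± 0.268 FPKM (SD, n = 3 in each group, Era first), with exact permutation p of 0.7 and 0.5. The sign for MT1X rested on Era+VK 3, without which its log2 fold change was 0.017, and the same library set the sign for MT1E (0.0056 without it).

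The other 3 metallothioneins had means below 1 FPKM and were not tested among all genes. MT1M was listed at 0.52, 0.39 and 0.35 FPKM in Era and at 0.43, 0.77 and 0 FPKM in Era+VK, so that the highest and the lowest library were again both Era+VK. MT1A was listed at 0 in 5 libraries and at 0.29 FPKM in Era+VK 3. MT1G, whose coding sequence is closest to that of MT2A, was listed at 0, 0.07 and 0.06 FPKM in Era and at 0 in the 3 Era+VK libraries. The exact permutation p was 1 for MT1M, 1 for MT1A and 0.4 for MT1G. Of 11 further metallothionein genes and pseudogenes looked for, 4 were in the files and none reached a mean of 1 FPKM. The highest of these was the pseudogene MT1L, listed at 0.15, 0.17 and 0.39 FPKM in Era and at 0 in the 3 Era+VK libraries.

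Summed over the 7 genes, metallothionein transcripts came to 232.34, 298.5 and 278.93 FPKM in Era and to 218.05, 276.68 and 215.33 FPKM in Era+VK. The Era+VK 2 sum lay between those of Era 1 and Era 3, and the other 2 Era+VK sums were below all Era sums. The means were 269.9 ± 33.99 and 236.7 ± 34.7 FPKM (SD, n = 3 each), a difference about as large as the spread within a group, with an exact permutation p of 0.2. The log2 ratio of the means was -0.19, and it moved to -0.29 without Era 1, -0.11 without Era 2, -0.32 without Era+VK 2, -0.13 without Era+VK 3 and -0.31 without both libraries with globin transcripts. The sum made up 0.0942% to 0.127% of all FPKM of a library.

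**Figure D1:**
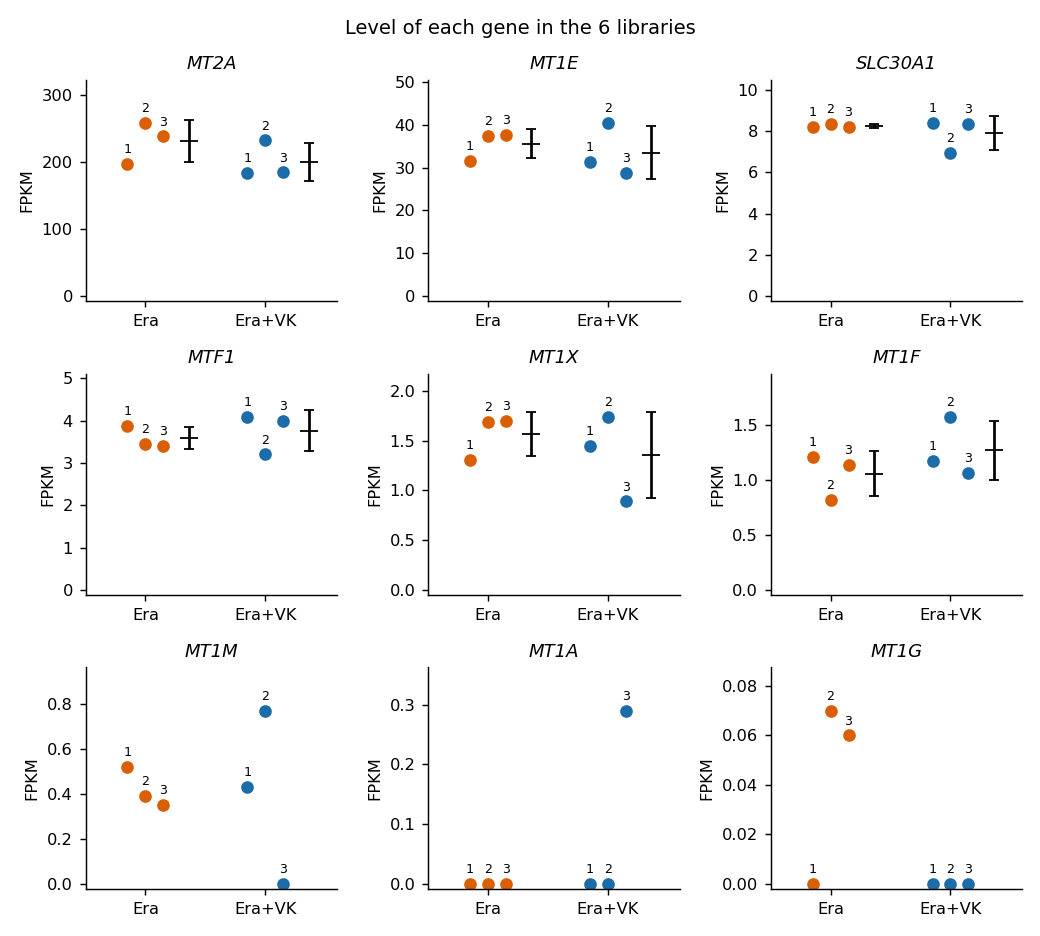
Level in FPKM (linear axis) of each of the 9 genes in the 3 Era (orange) and 3 Era+VK (blue) libraries, numbered by replicate, with the mean ± SD of the group as black bars for the 6 genes tested. The groups overlap in every panel with a tested gene, and MT2A runs from 183.64 to 258.08 FPKM while MT1A and MT1G are listed at 0 in most libraries.

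MTF1, the sensor of the pathway, was expressed at a low and narrow level. Its transcript stood at 3.88, 3.45 and 3.41 FPKM in Era and at 4.09, 3.2 and 3.99 FPKM in Era+VK. Era+VK 2 was the lowest of all 6 libraries and Era+VK 1 the highest, and the Era values fell between them. With means of 3.58 ± 0.261 and 3.76 ± 0.488 FPKM (SD, n = 3 each), the log2 fold change was 0.05 (SE 0.09, 95% interval -0.15 to 0.25, adjusted p = 0.811 in limma, exact permutation p = 0.8). It was 0.00089 without Era+VK 1, 0.02 without Era+VK 3, 0.03 without Era 2 and 0.03 without Era 3, but 0.10 without Era 1 and 0.14 without Era+VK 2, so its size rested on single libraries. The activity of MTF1 depends on zinc binding and on its entry into the nucleus, which transcript levels do not measure.

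SLC30A1, the exporter among its targets, had the narrowest range of the 6 genes tested, with a highest value 1.21 times the lowest. It stood at 8.2, 8.35 and 8.21 FPKM in Era and at 8.4, 6.94 and 8.36 FPKM in Era+VK. A single library, Era+VK 2, lay below the rest, and the other 5 differed by little. The means were 8.25 ± 0.0839 and 7.90 ± 0.832 FPKM (SD, n = 3 each), with a log2 fold change of -0.06 (SE 0.07, 95% interval -0.23 to 0.10, adjusted p = 0.721 in limma, exact permutation p = 1). Without Era+VK 2 the difference was 0.02 on the log2 scale, so its sign rested on that library. Among the 9 genes the order of levels was MT2A, MT1E, SLC30A1, MTF1, MT1X, MT1F, MT1M, MT1A and MT1G by the mean over 6 libraries. The library values of MT1X and MT1F overlapped, as did those of MT1M, MT1A and MT1G, while the other neighbours in this order did not overlap.

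None of the 6 genes tested passed an adjusted p of 0.05 in limma, against a background of 0.618% of all 11981 genes called (74 genes, 16 higher and 58 lower in Era+VK). None had an unadjusted p under 0.05, against 15.8% of all genes tested (1890 genes). No tested member had groups that did not overlap, a state found in 22.1% of all genes tested. At a background of 0.618%, 0 of 6 is not particular to these genes. The median log2 fold change of the 6 was -0.08, beside 0.03 over all genes tested, with 4 lower and 2 higher means. The intervals, like the p-values, rest on the spread between these libraries only, so they do not bound an effect of VK1 over separate cultures. For MT2A the interval ran from -0.49 to 0.07, further below 0 than above it. Without the 2 Era+VK libraries that held globin transcripts, Era+VK 1 alone against the 3 Era libraries gave -0.32 for MT2A (adjusted p = 0.354), -0.17 for MT1E, -0.06 for MT1X, 0.08 for MT1F, 0.15 for MTF1 and 0.02 for SLC30A1, none called in limma, where the lone library is assumed to vary like those of Era.

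**Figure D2:**
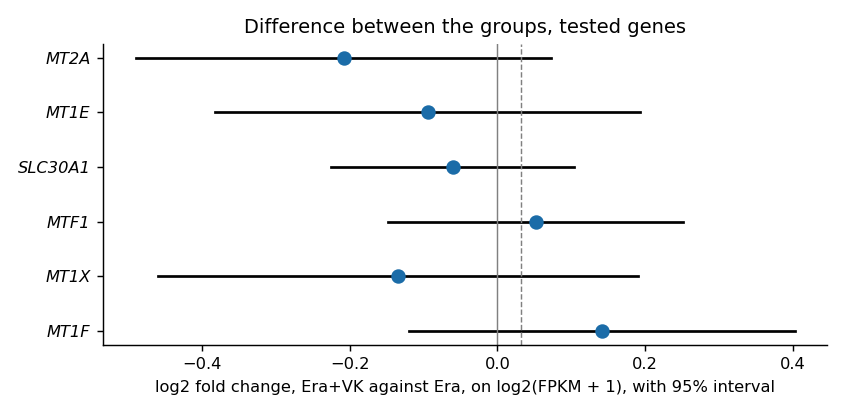
Log2 fold change of Era+VK against Era on log2(FPKM + 1) for the 6 tested genes (points) with its 95% interval (lines), a solid line at 0 and a dashed line at 0.03, the median of all 11981 genes tested. Every interval includes 0, from MT2A at -0.21 to MT1F at 0.14.

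The 3 more abundant tested metallothioneins varied together over the libraries in a way that did not follow the groups. MT2A, MT1E and MT1X each had their 3 highest values in Era 2, Era 3 and Era+VK 2, and 511 of 11981 genes (4.27%) had the same 3 libraries on top. MTF1 had its 3 lowest values in those libraries, as did 871 genes (7.27%). MT1F did not share the order, with Era 2 at -0.24 and Era+VK 2 at 0.26 relative to its mean over the 6 libraries on the log2 scale. The same 3 libraries also had the 3 highest FPKM sums (235130.3, 237885.7 and 237958.1, against 228452.3 to 232307.0 in the others).

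For MT2A the deviations from its mean over the libraries, on log2(FPKM + 1), were -0.11, 0.27 and 0.15 in Era and -0.22, 0.12 and -0.21 in Era+VK. MTF1 deviated by 0.07, -0.07 and -0.08 in Era and by 0.13, -0.15 and 0.10 in Era+VK. SLC30A1 deviated by 0.02, 0.05 and 0.02 in Era and by 0.05, -0.19 and 0.05 in Era+VK. Thus MT2A and MTF1 had opposite signs in each of the 6 libraries, whereas SLC30A1 was near its mean in every library but Era+VK 2. Metallothionein transcripts are short and those of MTF1 and SLC30A1 long, and genes longer than 2136 bases had median deviations from -0.0344 in Era 3 to 0.0428 in Era+VK 3. After a smooth trend on transcript length was removed from each library, MT2A deviated by -0.11, 0.29 and 0.17 in Era and by -0.22, 0.09 and -0.23 in Era+VK, and MTF1 by 0.08, -0.05 and -0.04 in Era and by 0.09, -0.13 and 0.05 in Era+VK, so both patterns were kept. The log2 fold change of MTF1 was then 0.0084 and that of MT2A -0.24. What set the 3 libraries apart was not tested.

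**Figure D3:**
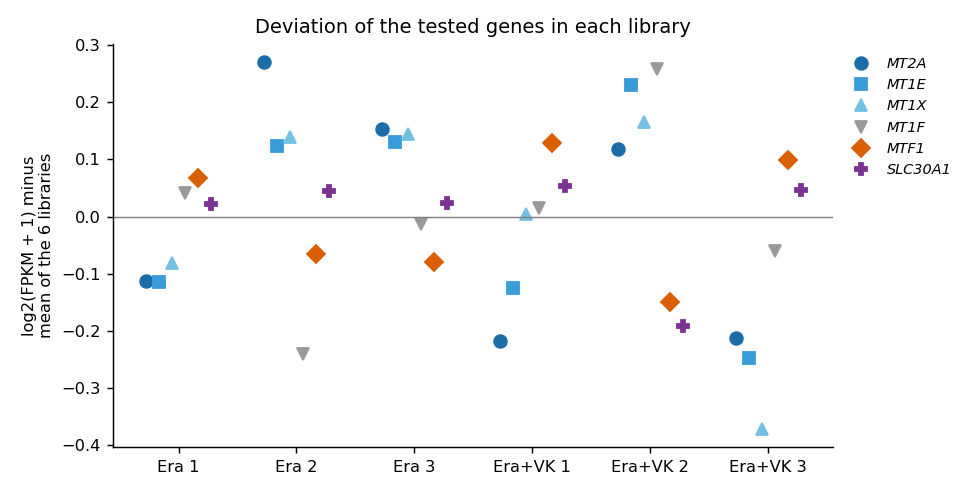
Deviation of log2(FPKM + 1) from the mean of the 6 libraries (vertical axis) for the 6 tested genes in each library (horizontal axis). MT2A, MT1E and MT1X lie above 0 together in Era 2, Era 3 and Era+VK 2, where MTF1 lies below 0.

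The genes whose levels followed the mean log2 level of MT2A, MT1E, MT1X and MT1F most closely over the 6 libraries, by Pearson correlation among 11977 other genes, were TCFL5 (r = 0.996), SNRPB2 (0.996), PMVK (0.995), NUDT17 (0.992, rank 4) and ATP5PB (0.987). TCFL5 is a transcription factor, SNRPB2 a spliceosome protein, PMVK an enzyme of the mevalonate pathway and ATP5PB a subunit of the mitochondrial ATP synthase. TCFL5 stood at 4.64, 4.95 and 5.13 FPKM in Era and at 4.58, 5.45 and 4.17 FPKM in Era+VK, with the same 3 libraries on top. At the other end were FGD6 (-0.997), ZSCAN12 (-0.995), MAP3K9 (-0.989), SEL1L (-0.985) and LPGAT1 (-0.984), of which SEL1L, a component of endoplasmic reticulum-associated degradation, ran from 18.31 to 20.04 FPKM. Of the 11977 genes, 95 had r above 0.9 and 170 had r below -0.9, and how many would do so by chance was not computed. These coefficients describe 6 points that share library and scaling.

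Other genes of zinc handling also showed no called difference. Of the other 5 tested zinc exporters of the SLC30 family, 0 passed the test and 0 had an unadjusted p under 0.05, with 4 higher and 1 lower mean in Era+VK, a median log2 fold change of 0.05 and a range from -0.01 to 0.13. SLC30A9, the most abundant of them, averaged 16.3 ± 0.531 without and 16.9 ± 0.455 FPKM with VK1 (SD, n = 3 each). Of 11 tested importers of the SLC39 family, which carry zinc into the cytosol, 0 passed, 3 had an unadjusted p under 0.05 (15.8% of all genes), and the median was 0.06 with 9 higher means.

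Among the importers, SLC39A1 was the most abundant at 64.4 ± 3.25 and 63.6 ± 1.88 FPKM (SD, n = 3 each). For SLC39A6, SLC39A7, SLC39A8 and SLC39A9 all Era+VK libraries lay above all Era libraries, which is 4 of 11 genes beside 22.1% of all genes tested. SLC39A9, an importer of the secretory pathway, had the smallest adjusted p of the list, with 10.25, 10.86 and 9.97 FPKM in Era and 11.46, 11.93 and 11.53 FPKM in Era+VK (log2 fold change 0.15, SE 0.05, adjusted p = 0.197 in limma). SLC39A14, which also carries iron, stood at 13.9 ± 0.342 and 12.6 ± 1.32 FPKM (SD, n = 3 each, adjusted p = 0.386 in limma).

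Metallothioneins also bind copper. Of 10 tested copper transport and chaperone genes, 0 passed the test and 0 had an unadjusted p under 0.05, with 8 higher means and a median log2 fold change of 0.08. SOD1, the copper and zinc superoxide dismutase, was the most abundant at 77.7 ± 1.55 and 85.1 ± 9.67 FPKM (SD, n = 3 each, adjusted p = 0.467 in limma). Of 8 transcription regulators chosen for comparison with MTF1, 0 passed the test and 0 had an unadjusted p under 0.05, with a median of 0.05 and 7 higher means. NFE2L2, which encodes NRF2, stood at 8.69 ± 0.0961 and 9.16 ± 0.1501 FPKM (SD, n = 3 each), and its 3 Era+VK values lay above its 3 Era values (adjusted p = 0.460 in limma). It was the only 1 of the 8 regulators whose groups did not overlap, a state found in 22.1% of all genes tested. USF1, which binds E-boxes in metallothionein promoters, was the most abundant of this list at 17.5 ± 1.14 and 18.5 ± 1.30 FPKM (SD, n = 3 each).

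Metallothionein genes are also induced by oxidants, glucocorticoids and cadmium-like stress, and genes known for each of these inputs were read for comparison. Of 12 tested NRF2 targets, 1 was called, beside 0.618% of all genes. It was SLC7A11, the cystine transporter that erastin blocks, at 7.22, 9.29 and 7.84 FPKM in Era and 4.5, 4.41 and 5.33 FPKM in Era+VK (log2 fold change -0.66, SE 0.10, adjusted p = 0.0337 in limma). The activity of NRF2 was not measured, and what set the level of SLC7A11 was not tested. With 1 library left out its adjusted p in limma ran from 0.0469 to 0.133, and of these 6 fits the call was kept only without Era+VK 3; without the 2 libraries with globin transcripts it was 0.126. The list as a whole had 6 higher and 6 lower means, a median of -0.01, 5 genes with an unadjusted p under 0.05 (15.8% of all genes) and 6 genes whose groups did not overlap (22.1% of all genes). HMOX1, the haem-degrading enzyme, was at 56.7 ± 5.40 and 50.3 ± 2.53 FPKM (SD, n = 3 each, adjusted p = 0.330 in limma). FTH1, the ferritin heavy chain and most abundant of the list, was at 3604 ± 137.3 and 3310 ± 28.7 FPKM (SD, n = 3 each, adjusted p = 0.385 in limma), with the groups not overlapping. The groups also did not overlap for FTL, the ferritin light chain, which went the other way. It averaged 2447 ± 117.1 and 2802 ± 176.4 FPKM (SD, n = 3 each, adjusted p = 0.258 in limma). GCLC and SRXN1 were also higher in Era+VK without overlap, and NQO1, like SLC7A11, was lower without overlap.

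Of 8 tested glucocorticoid-induced genes, 0 passed, 1 had an unadjusted p under 0.05 (15.8% of all genes) and 1 had groups that did not overlap (22.1% of all genes), with 4 higher and 4 lower means and a median log2 fold change of 0.00. DUSP1, a phosphatase of MAP kinases, led this list at 103.8 ± 6.76 and 97.4 ± 5.67 FPKM (SD, n = 3 each). Of 8 tested heat shock and cadmium-induced chaperone genes, 0 passed, 2 had an unadjusted p under 0.05 (15.8% of all genes) and 4 had groups that did not overlap (22.1% of all genes), with 6 lower means and a median of -0.07. HSPA8, the constitutive HSP70 chaperone, was the most abundant, with 304.42, 298.34 and 304.77 FPKM in Era and 241.81, 285.79 and 257.99 FPKM in Era+VK (log2 fold change -0.21, SE 0.06, adjusted p = 0.197 in limma). Its fold change equalled that of MT2A to 2 decimals, with a smaller standard error and with groups that did not overlap.

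Without the 2 Era+VK libraries with globin transcripts, Era+VK 1 alone stood against the 3 Era libraries. Only effect sizes are therefore given for the lists. The list medians then lay between -0.03 and 0.08 on the log2 scale. HSPA8 was at -0.32, SLC39A9 at 0.13, NFE2L2 at 0.08, FTH1 at -0.13 and SLC7A11 at -0.72. The correlations over 6 libraries were not recomputed without those 2 libraries.

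**Figure D4:**
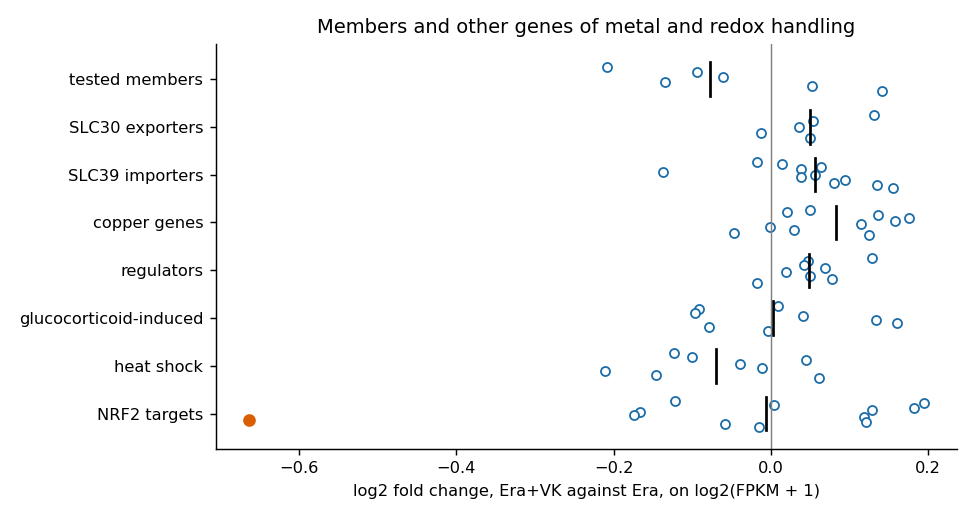
Log2 fold change of Era+VK against Era on log2(FPKM + 1) for the tested genes (points) of the 9-gene group and of 7 related gene lists, with black bars at the median of each list. The filled point is SLC7A11 at -0.66, the 1 gene past the adjusted p of 0.05 in limma, and the other points lie between -0.21 and 0.19.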

How the data were processed

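Total RNA (RIN above 7 per the labels) was sequenced in 6 libraries. The authors deposited 1 table of FPKM values per library. The submitters' processing notes name cutadapt, HISAT2 and StringTie 2.1.6 without giving their roles, and the mouse build mm10, although the gene identifiers are those of human genes; the annotation release is not given in the sources used here. The labels number the cell line upward from library to library, while all titles name ARPE-19. FPKM are relative to all mapped fragments, so a change in abundant genes moves the others. Low values of single-exon genes showed no whole-read steps (28.8% to 33.0% within 0.1 read of a whole number at the best trial depth), so depth is unknown and no count model was used.

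From the deposited FPKM, genes whose mean over the 6 libraries reached 1 FPKM were tested on log2(FPKM + 1), which understates changes of low genes, with limma 3.58.1 (R 4.3.3, trended empirical Bayes, Benjamini-Hochberg over 11981 genes, threshold 0.05), Era+VK against Era without a replicate term. Single levels were compared by a two-sided exact permutation test (scipy 1.17.1, Python 3.11.15), and figures drawn with matplotlib 3.10.9. The limma step was tested on simulated data. Named genes are the 9 members, the called and most abundant genes of each list, and the 5 most and 5 least correlated genes. Other named list genes (NFE2L2, HMOX1, FTL, GCLC, SRXN1, NQO1, SLC39A14, those SLC39 genes without overlap, SLC39A9, MT1L) were picked after their values were seen. The members and lists were chosen with earlier results of these data known. Gene structure is from GENCODE 29, promoters are from RefSeq. Alternatives were another pseudocount, filter or scaling, the replicate block, leaving out libraries and removal of a length trend.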

Additional observations from a re-analysis of the deposited data

How the results depend on the processing

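No metallothionein, MTF1 or SLC30A1 was called under any of the alternatives, and 78 of 82 refitted differences kept their sign. The number of genes called over the whole table, 74, was 1 with no filter (which also left MT1M, MT1A and MT1G uncalled), 122 with at least 1 FPKM in every library (MT1X and MT1F could not be fitted), 112 after quantile normalization, 35 without the Era+VK libraries with globin transcripts, and 117 with the length trend removed, an alternative chosen after seeing the data. The share of calls that were higher, 21.6%, became 11.1% with the length trend removed, 42.9% without Era+VK 1 (30 of 70) and 0% with no filter, without Era 1 or without Era 2, where at most 2 genes were called. Leaving out 1 library gave 2 to 70 calls: 2 without Era 1, 2 without Era 2, 5 without Era 3 and 42 without Era+VK 3. The replicate number as a block gave 42 calls. On deviations from the mean of each group, same-numbered libraries correlated at 0.0709, 0.103 and 0.021. The other pairs ran from -0.114 (Era 2 with Era+VK 1) to 0.0401 (Era 3 with Era+VK 1). Each Era+VK library correlated best with the Era library of its number, but Era 3 correlated best with Era+VK 1. Whether same-numbered libraries were made together cannot be told from these values. The signs that turned were SLC30A1, at 0.023 without the libraries with globin transcripts and from -0.10 to 0.020 leaving out 1 library, MT1E, from -0.23 to 0.0056, and MT1X, from -0.25 to 0.017. SLC7A11 stayed lower in all 14 alternatives and was called in 6 of them. MT2A ranged from -0.32 to -0.13 (adjusted p in limma from 0.167 to 0.747), MTF1 from 0.00089 to 0.15 and MT1F from 0.05 to 0.24 over all alternatives. Depth is unknown, so the part of counting error in these spreads could not be given. The cause of these shifts was not tested.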
